A study of Mus musculus with 12 samples.

Results

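Slit1, Slit2 and Slit3 encode the 3 secreted Slit ligands of the mouse, and Robo1, Robo2 and Robo3 encode their neuronal receptors; all 6 genes were followed here in neurons of the pontine nucleus, out of 23079 genes in the deposited count table. The genes were taken by symbol, without reference to their values, and all 6 passed the filter on low counts. Slits are large glycoproteins of the extracellular matrix that bind Robo1 and Robo2 on growing axons and migrating neurons and, in most settings, repel them. Robo3, formerly Rig-1, differs: in mammals it does not bind Slits with high affinity, it works with the netrin receptor Dcc, and mice without it have pontine neurons that fail to cross the ventral midline. Pontine neurons are born in the rhombic lip of the hindbrain, migrate a long way around it to the ventral pons, and relay cortical signals to the cerebellum. In the mouse, Robo1, Robo2 and Slits, with Hoxa2 and Hoxb2 acting upstream of Robo2, are known to hold these neurons to their migratory path.

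The study compared genetically labelled pontine neurons of CD-1 embryos at embryonic stage E18.5, sorted at 2000 cells per replicate. The Hoxa5tdTomato group had 3 libraries, the Math1Hoxa5-IRES-GFP group had 3, and the Math1tdTomato group, which the series design names as the reference, had 6. Math1, also called Atoh1, is the transcription factor of rhombic lip progenitors, and Hoxa5 is a Hox gene of the posterior hindbrain and spinal cord; tdTomato and GFP are fluorescent proteins. The column names add the words Hoxa5 and cre to the Hoxa5tdTomato libraries, Math1, Cag, lsl and Hoxa5 to the Math1Hoxa5-IRES-GFP libraries, Math1 and creErt2 to 3 of the Math1tdTomato libraries, and Math1 and tdT to the other 3. The labels give no further allele, no inducing agent and no sex, and do not say whether replicates came from separate litters, animals or pools, so p values measure the spread between these libraries, which may be partly technical.

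Total counts ran from 9973484 to 13302076 in the Hoxa5tdTomato and creErt2 libraries and from 22355961 to 29820776 in the Math1Hoxa5-IRES-GFP and tdT libraries. From the words of the names and this depth, the first 6 are called set 1 and the last 6 set 2. No label states that pairing, and a difference in depth cannot be told apart from one in set. The third Math1Hoxa5-IRES-GFP library stood apart: across genes its log2 CPM correlated with those of its 2 replicates at r = 0.860 and 0.868, against 0.914 between those 2 replicates and 0.926 to 0.943 between replicates of the other groups. CPM is the count scaled to library size; TPM is scaled to gene length as well and is used wherever 1 gene is set against another.

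Hoxa5 served as the check of the labels. It stood at 127, 221 and 119 CPM in the Hoxa5tdTomato libraries, against 8.79, 8.61 and 23.1 CPM in the creErt2 and 8.06, 4.35 and 32.2 CPM in the tdT libraries. In the libraries labelled Math1Hoxa5-IRES-GFP it stood at 9.73, 16.8 and 81.9 CPM. All 3 Hoxa5tdTomato libraries were above every Math1tdTomato library, by 3.46 ± 0.59 on the log2 scale (± SE, edgeR adjusted p = 0.00712). Of the libraries labelled Math1Hoxa5-IRES-GFP, the first and second lay inside the range of the Math1tdTomato libraries and only the third lay above it (log2 difference 1.35 ± 0.59, edgeR adjusted p = 0.255), so every direction given below for this group rests on its label.

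The 6 genes lie on 5 chromosomes (GRCm38, the assembly of mm10). Robo1 (chr16:72027518-73047491, plus strand) and Robo2 (chr16:73891976-75447443, minus strand) are neighbours with 844484 bases between them. Robo3 (chr9:37416045-37433436, minus strand) lies 2021 bases from Robo4 (chr9:37401902-37414023, plus strand), which encodes the endothelial member of the family. Slit1 is at chr19:41597824-41747275 on the minus strand, Slit2 at chr5:47981291-48307735 on the plus strand, and Slit3 at chr11:35121456-35708507 on the plus strand.

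The promoters were read because the series concerns a Hox factor. RefSeq promoter windows on GRCm38.p6 were given for 5 of the 6 genes, 7 windows in all, and Slit1 was not among them. The 250 bases upstream of each start were searched on both strands for TAATTA, a homeodomain core; TGATNNAT, a Hox and Pbx pair; and the E-boxes CAGATG and CAGCTG. These 4 motifs stood in 4.84%, 7.68%, 14.4% and 13.0% of the 32851 promoter windows of all genes. Of the 7 windows 2 held a match, and these matches are shown, 5′ to 3′ on the gene's strand, with the motif in capitals.
Robo3: ggattaagccctTAATTAcggcgtgatccg
Robo2: tccagcccccagCAGCTGctggaggaggcg
The Robo3 stretch is chr9:37433259-37433288 on the minus strand, with TAATTA from 101 to 96 bases upstream of the listed start. That start, like those listed for Robo1, Robo2 and Slit2, lies inside the gene bounds given above. The windows of these genes thus lie wholly or partly within the gene. The Robo2 stretch is chr16:74411845-74411874 on the minus strand, with CAGCTG from 37 to 32 bases upstream of 1 of its 3 listed starts. A match describes the letters only, and no binding was measured.

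By TPM, receptor transcripts outnumbered ligand transcripts in every library. Summed over Robo1, Robo2 and Robo3, the level was 185 to 207 TPM in the Hoxa5tdTomato libraries, 288 to 549 TPM in the libraries labelled Math1Hoxa5-IRES-GFP and 168 to 558 TPM in the Math1tdTomato libraries. Summed over the 3 Slits, it was 68.8 to 74.9, 31.5 to 57.8 and 20.8 to 33.4 TPM in the same order of groups. The Slit sum of every Hoxa5tdTomato library was above that of all 9 other libraries, while the Robo sums overlapped. Robo2 exceeded Slit2 by TPM in 12 of 12 libraries, and Slit2 and Slit3 each exceeded Slit1 in 12 of 12.

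The order of the 3 receptors differed between the groups. In the Hoxa5tdTomato libraries the level was 121 ± 12.7 TPM for Robo2, 49.0 ± 9.45 TPM for Robo3 and 27.7 ± 4.84 TPM for Robo1 (SD, n = 3), and Robo3 was above Robo2 in 0 of 3 libraries. In the libraries labelled Math1Hoxa5-IRES-GFP, Robo3 at 212 ± 153 TPM and Robo2 at 119.9 ± 39.7 TPM did not differ beyond their spread, and Robo1 followed at 66.3 ± 23.5 TPM (SD, n = 3). In the Math1tdTomato libraries the level was 210.2 ± 123 TPM for Robo3, 91.7 ± 15.1 TPM for Robo2 and 31.9 ± 23.6 TPM for Robo1 (SD, n = 6), and Robo3 was above Robo2 in 5 of 6 libraries. Neighbours in this order had ranges that did not overlap in the Hoxa5tdTomato libraries, while those of Robo3 and Robo2 overlapped in the Math1tdTomato libraries. The ligands stood at 32.6 ± 5.17 TPM for Slit3, 30.4 ± 6.76 TPM for Slit2 and 8.13 ± 0.845 TPM for Slit1 in the Hoxa5tdTomato libraries (SD, n = 3), where Slit3 and Slit2 did not differ beyond their spread. In the Math1tdTomato libraries Slit2 was clearly first, at 20.5 ± 1.73 TPM, before Slit3 at 6.76 ± 3.26 TPM and Slit1 at 1.78 ± 1.61 TPM (SD, n = 6), and Slit2 was above Slit3 in 6 of 6.

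**Figure D1:**
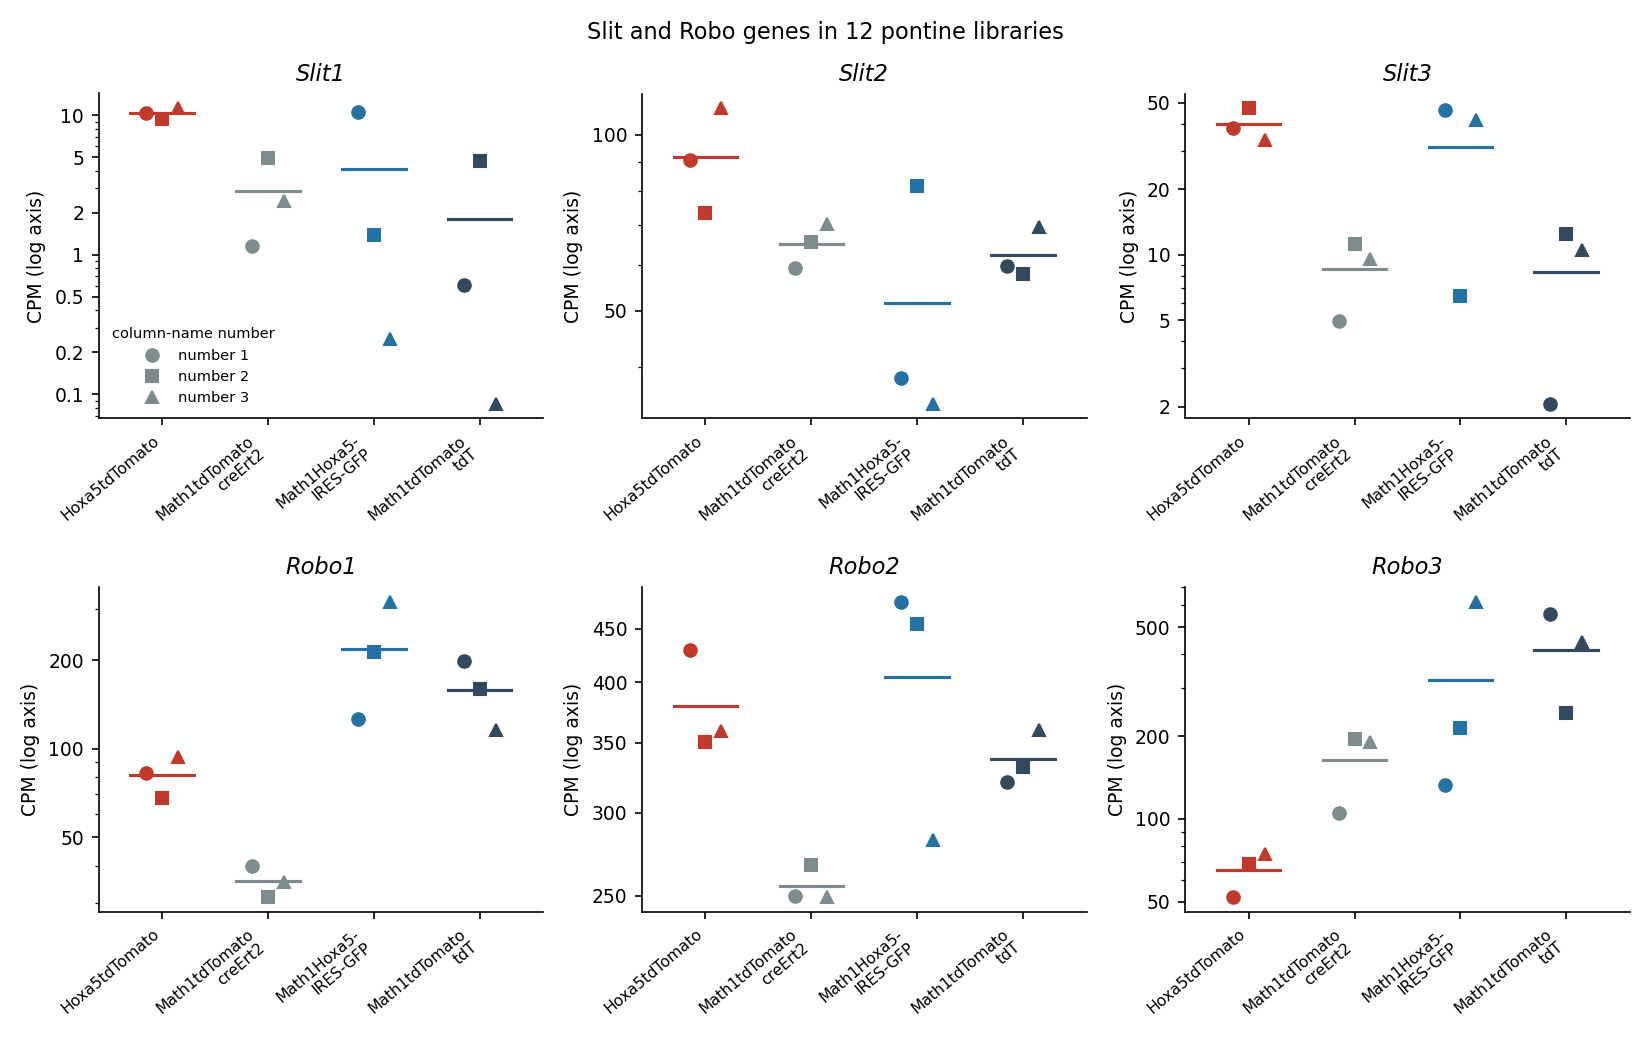
CPM of the 6 genes on log axes in the 12 libraries, 1 point per library and a line at the mean of each column-name group; point shapes are the numbers 1 to 3 in the column names. Slit3 sits between 33.7 and 47.0 CPM in the Hoxa5tdTomato libraries, above all 6 Math1tdTomato libraries, and Robo3 sits between 51.9 and 74.3 CPM, below all of them. Robo1, Robo2 and Robo3 each split the Math1tdTomato libraries by set, as do 24.6% of all genes tested.

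Among the ligands, Slit3 was the one that rose past the threshold in Hoxa5tdTomato neurons. Slit3 stood at 38.2, 47.0 and 33.7 CPM in the Hoxa5tdTomato libraries, against 4.97, 11.2 and 9.50 CPM in the creErt2 and 2.07, 12.4 and 10.5 CPM in the tdT libraries. The lowest Hoxa5tdTomato library was well above the highest Math1tdTomato library. The log2 difference was 2.23 ± 0.52 (edgeR adjusted p = 0.0360), and 2.21 ± 0.67 within set 1 (adjusted p = 0.226, in a fit that kept the creErt2 and tdT libraries apart). The size was the same in both fits and the call held only in the pooled one; in the 6 libraries of set 1 fitted alone it was 2.24 ± 0.31 (adjusted p = 0.000171). Leaving out 1 library at a time kept the difference between 2.05 and 2.40, with the adjusted p between 0.0122 and 0.185 and the call kept in 4 of 12 fits. The call was lost without any 1 of the Hoxa5tdTomato or creErt2 libraries and without either the first or the third tdT library.

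Slit2, the most abundant Slit of the Math1tdTomato libraries, was moderately higher in the Hoxa5tdTomato libraries without passing the threshold. It stood at 90.6, 73.4 and 111 CPM in the Hoxa5tdTomato libraries, against 59.1, 65.5 and 70.4 CPM in the creErt2 and 59.7, 57.8 and 69.7 CPM in the tdT libraries. The groups came close without overlapping, and the log2 difference was 0.53 ± 0.24 (edgeR adjusted p = 0.328).

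Slit1 was the scarcest of the 6 genes. It stood at 10.4, 9.42 and 11.2 CPM in the Hoxa5tdTomato libraries, against 1.15, 4.97 and 2.44 CPM in the creErt2 and 0.606, 4.71 and 0.0857 CPM in the tdT libraries. The raw counts behind these values were 117, 140 and 123 in the Hoxa5tdTomato libraries, against 13, 56 and 27 in the creErt2 and 17, 104 and 2 in the tdT libraries. All 3 Hoxa5tdTomato libraries were again above all 6 Math1tdTomato libraries, at nearly equal levels among themselves, while the Math1tdTomato libraries spread widely, and the log2 difference was 2.16 ± 0.97 (edgeR adjusted p = 0.312). In the 6 libraries of set 1 fitted alone it was 1.88 ± 0.55 (adjusted p = 0.0449).

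Among the receptors, Robo3 fell and was the only one to pass the threshold with all references pooled. Robo3 stood at 51.9, 68.7 and 74.3 CPM in the Hoxa5tdTomato libraries, against 105, 196 and 192 CPM in the creErt2 and 556, 243 and 441 CPM in the tdT libraries. The 3 Hoxa5tdTomato libraries were close together and below all 6 Math1tdTomato libraries, whose tdT members were all above the creErt2 members. The log2 difference was -2.15 ± 0.51 (edgeR adjusted p = 0.0393). Within set 1 it was -1.34 ± 0.44 (adjusted p = 0.286), and in the 6 libraries of set 1 fitted alone -1.31 ± 0.20 (adjusted p = 0.000504), so that the tdT libraries added to the pooled size. Leaving out 1 library at a time gave -2.33 to -1.83 with adjusted p from 0.00635 to 0.229 and the call kept in 6 of 12 fits; it was lost without any 1 of the Hoxa5tdTomato or tdT libraries.

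Robo1, a high-affinity Slit receptor, showed no clear direction with the pooled references and was higher with those of set 1. It stood at 82.5, 67.9 and 93.8 CPM in the Hoxa5tdTomato libraries, against 39.9, 31.3 and 35.3 CPM in the creErt2 and 199, 160.2 and 116 CPM in the tdT libraries. The Hoxa5tdTomato libraries lay between the 2 kinds of Math1tdTomato library and overlapped neither. The pooled log2 difference was -0.26 ± 0.50 (edgeR adjusted p = 0.885), and within set 1 it was 1.20 ± 0.28 (adjusted p = 0.0881). In the 6 libraries of set 1 fitted alone it was 1.22 ± 0.19 (adjusted p = 0.000465). Without the third Math1Hoxa5-IRES-GFP library, which takes no part in the contrast but enters the shared spread, the value within set 1 was 1.19 (adjusted p = 0.00690).

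Robo2, the other Slit receptor, was the most abundant receptor of the Hoxa5tdTomato libraries. It stood at 429, 351 and 359 CPM there, against 249.7, 267 and 249 CPM in the creErt2 and 321, 332 and 360.3 CPM in the tdT libraries. The Hoxa5tdTomato libraries were above every creErt2 library and overlapped the tdT libraries. The log2 difference was 0.36 ± 0.17 pooled (edgeR adjusted p = 0.363), 0.57 ± 0.17 within set 1 (adjusted p = 0.219) and 0.60 ± 0.11 in the 6 libraries of set 1 alone (adjusted p = 0.00173).

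In all, 2 of the 6 genes were called between Hoxa5tdTomato and Math1tdTomato libraries, 1 higher and 1 lower, against 1.73% of the 14732 genes tested (0.842% higher and 0.889% lower). At an unadjusted p below 0.05 the count was 4 of 6, against 14.6% of all genes. With the references of the sets apart, 0 of 6 were called in edgeR, against 0.557% of all genes, and 4 of 6 had an unadjusted p below 0.05, against 8.91%. The same fit without the third Math1Hoxa5-IRES-GFP library, also chosen after the data were seen, called 3 of 6, against 2.43% of 14993 genes. These were Robo1, Robo2 (0.57, adjusted p = 0.0115) and Robo3 (-1.34, adjusted p = 0.0133), while Slit3 was not called (2.21, adjusted p = 0.0737). In the 6 libraries of set 1 fitted alone, a choice made after the data were seen, 5 of 6 were called (Slit1, Slit3, Robo1 and Robo2 higher, Robo3 lower), against 7.19% of 13629 genes (4.18% higher and 3.01% lower). The median log2 difference of the 6 genes was 0.44, against 0.005 over all genes tested. By exact permutation of the 84 splits of these 9 libraries, two-sided, Slit1, Slit2, Slit3 and Robo3 each reached p = 0.0238, the smallest these splits can give, and Robo2 had p = 0.0714 and Robo1 p = 0.905, 6 of the 18 such tests run, unadjusted. In 14.1% of all genes tested the 2 groups likewise did not overlap. Within set 1 all 6 genes had groups that did not overlap, as had 25.3% of all genes, and 20 splits cannot give a p below 0.1.

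**Figure D2:**
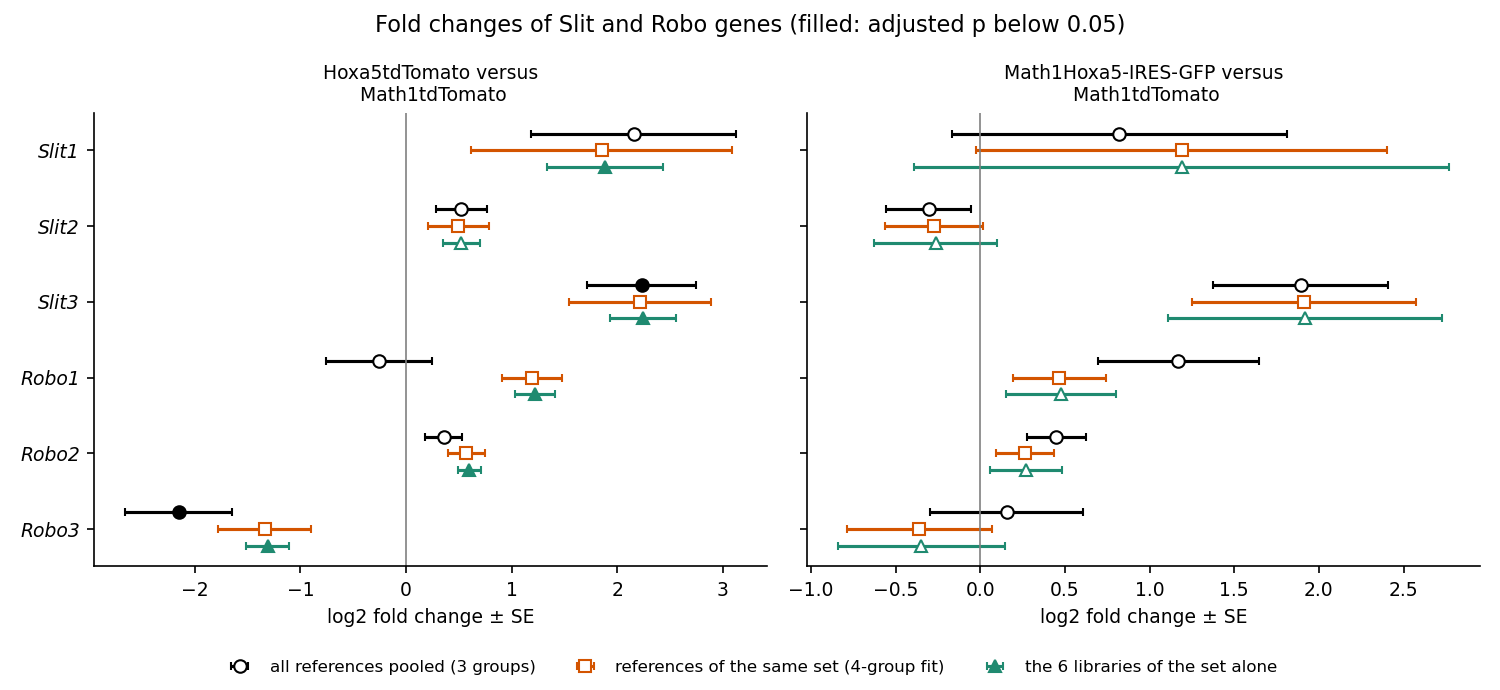
Log2 fold change ± SE of each gene for Hoxa5tdTomato (left) and Math1Hoxa5-IRES-GFP (right) against Math1tdTomato libraries, from the fit with all references pooled, the fit with the references of each set apart, and a fit of the 6 libraries of the set alone; filled symbols have an adjusted p below 0.05. Robo1 in the left panel moves from -0.26 to 1.20 between the first and second fits, while Slit3 stays at 2.23 and 2.21.

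The set itself was compared in the Math1tdTomato libraries, which carry 1 label. Robo1 was lower in the creErt2 than in the tdT libraries by a log2 difference of -2.16 ± 0.29 (edgeR adjusted p = 0.00230), the only call among the 6 genes, against 1.34% of all genes. Robo3 was at -1.33 ± 0.44 (adjusted p = 0.177) and Robo2 at -0.40 ± 0.17 (adjusted p = 0.327). The creErt2 and tdT libraries did not overlap for any of the 3 receptors, as for 24.6% of all genes. For the ligands the log2 differences were 0.67 ± 1.21 for Slit1, 0.06 ± 0.29 for Slit2 and 0.04 ± 0.65 for Slit3 (adjusted p from 0.905 to 0.995). Depth, the alleles named in the columns and any other difference between the sets cannot be told apart here.

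As a share of the summed Robo TPM, which is unaffected by library scaling, Robo3 made up 24.9% ± 4.92 in the Hoxa5tdTomato libraries (SD, n = 3), against 60.1% ± 9.37 in the Math1tdTomato libraries (SD, n = 6). The values were 19.2%, 27.8% and 27.7% in the Hoxa5tdTomato libraries, against 45.9%, 60.7% and 61.2% in the creErt2 and 71.2%, 53.4% and 68.3% in the tdT libraries. The groups were far apart for this share, and the creErt2 and tdT libraries overlapped. Robo2 made up 61.2% ± 5.36 in the Hoxa5tdTomato libraries and 31.1% ± 9.95 in the Math1tdTomato libraries (exact two-sided permutation p = 0.0238 for both shares, the smallest possible, unadjusted over 6 such tests). The 3 shares of a library make up a fixed whole, so these tests are not independent of each other. By CPM, Robo2 overlapped the Math1tdTomato libraries (exact permutation p = 0.0714). Robo1 made up 13.9% ± 1.70 and 8.78% ± 4.27 (exact permutation p = 0.119). Unlike Robo3, these 2 shares split the Math1tdTomato libraries by set. Robo1 ran from 4.36% to 7.87% in the creErt2 and from 8.09% to 15.8% in the tdT libraries, against 12.3% to 15.7% in the Hoxa5tdTomato libraries. Robo2 ran from 33.7% to 46.2% in the creErt2 and from 17.4% to 30.8% in the tdT libraries. In the libraries labelled Math1Hoxa5-IRES-GFP the Robo1 share was 16.6% ± 2.32 (exact permutation p = 0.0476, unadjusted). Among the ligands the Slit3 share was 46.0% ± 8.59 in the Hoxa5tdTomato libraries and 22.1% ± 8.49 in the Math1tdTomato libraries, and the Slit2 share was 42.6% ± 7.81 and 72.2% ± 11.7.

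**Figure D3:**
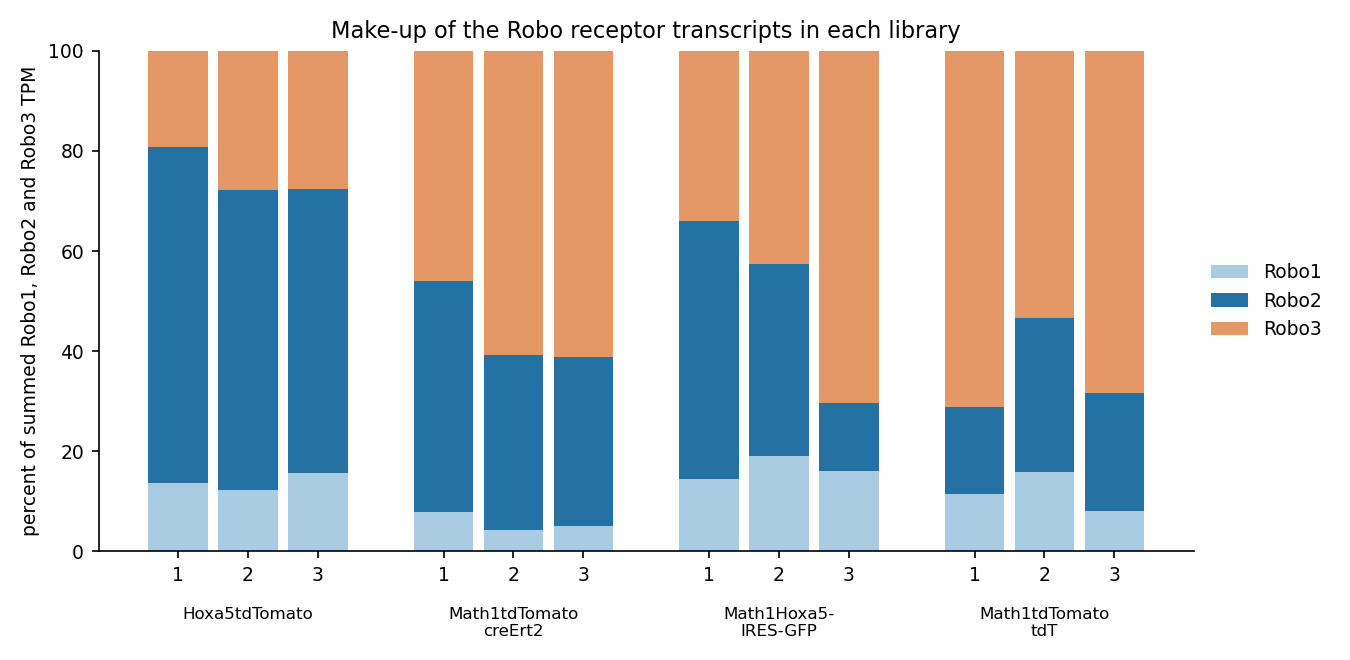
Share of the summed Robo1, Robo2 and Robo3 TPM (percent) taken by each receptor, 1 bar per library in the 4 column-name groups. Robo3 takes 19.2% to 27.8% in the Hoxa5tdTomato libraries and 45.9% to 71.2% in the Math1tdTomato libraries, and it runs from 34.0% to 70.3% in the libraries labelled Math1Hoxa5-IRES-GFP.

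Against the same 6 Math1tdTomato libraries, which both comparisons share, 0 of the 6 genes passed the threshold in the libraries labelled Math1Hoxa5-IRES-GFP in edgeR, against 1.84% of all genes, and 3 of 6 had an unadjusted p below 0.05, against 16.7%; DESeq2 called 1 of 6, against 5.64% of all genes. With the references apart the count was again 0 of 6, against 0.862% of all genes, and 1 of 6 had an unadjusted p below 0.05, against 13.7%. The median log2 difference of the 6 genes was 0.64, against -0.002 over all genes tested. None of the 6 genes had groups that did not overlap, against 6.37% of all genes, and the exact permutation p values over 84 splits ran from 0.0952 for Robo1 and Robo2 to 0.929 for Robo3.

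Slit3 came closest, through 2 of the 3 libraries. It stood at 46.3, 6.43 and 41.4 CPM in the libraries labelled Math1Hoxa5-IRES-GFP, against 2.07, 12.4 and 10.5 CPM in the tdT and 4.97, 11.2 and 9.50 CPM in the creErt2 libraries. The first and the third library were at the level of the Hoxa5tdTomato libraries, and the second lay within the Math1tdTomato range. The log2 difference was 1.89 ± 0.52 (edgeR adjusted p = 0.0712; DESeq2 1.91, adjusted p = 0.0108), and 2.38 without the second library (edgeR adjusted p = 0.0126). Of the 2 libraries with high Slit3, the first had Hoxa5 inside the Math1tdTomato range.

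Each receptor had its highest or lowest value of this group in the third library, the one that stood apart. In so small a group any library is often the highest or lowest, so this is a description only. Robo1 stood at 127, 213 and 316 CPM in the libraries labelled Math1Hoxa5-IRES-GFP, against 199, 160.2 and 116 CPM in the tdT libraries of the same set, which it overlapped. The log2 difference was 1.17 ± 0.48 against all Math1tdTomato libraries (edgeR adjusted p = 0.219) and 0.47 ± 0.28 within set 2 (adjusted p = 0.491). Robo2 stood at 478, 455 and 283 CPM, against 321, 332 and 360.3 CPM in the tdT libraries, with the third library below all of these and the others above. The log2 difference of Robo2 was 0.45 ± 0.17 (edgeR adjusted p = 0.195), and without the third library 0.65 (adjusted p = 0.0358), a call.

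Robo3 stood at 133, 214 and 619 CPM in the libraries labelled Math1Hoxa5-IRES-GFP, against 556, 243 and 441 CPM in the tdT libraries. The first and second libraries were below every tdT library and the third above every one. The log2 difference was 0.16 ± 0.45 against all Math1tdTomato libraries (edgeR adjusted p = 0.898) and -0.36 ± 0.43 within set 2 (adjusted p = 0.771). Within set 2 without the third library it was -1.25 ± 0.31 (adjusted p = 0.0404), and against all Math1tdTomato libraries without it -0.73 (adjusted p = 0.467), so that the size and, in the pooled fit, the direction turned on 1 library. As a share of Robo TPM, Robo3 made up 34.0%, 42.6% and 70.3% in these 3 libraries, and Robo2 made up 51.5%, 38.2% and 13.6%.

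Of the remaining ligands, Slit1 stood at 10.7, 1.39 and 0.251 CPM in the libraries labelled Math1Hoxa5-IRES-GFP, against 0.606, 4.71 and 0.0857 CPM in the tdT libraries, a log2 difference of 0.82 ± 0.99 against all Math1tdTomato libraries (edgeR adjusted p = 0.719). Slit2 stood at 38.4, 81.7 and 34.7 CPM, against 59.7, 57.8 and 69.7 CPM, a log2 difference of -0.30 ± 0.25 (adjusted p = 0.579). The 3 libraries spread widely for Slit1, and for Slit2 the second library stood above both others. Across the 3 libraries Slit2 was high where Slit3 was low.

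Set directly against the libraries labelled Math1Hoxa5-IRES-GFP, a comparison across the sets, Hoxa5tdTomato libraries had 1 of 6 genes called, against 3.35% of all genes, and 3 of 6 at an unadjusted p below 0.05, against 22.1%. This was Robo3, at -2.31 ± 0.55 on the log2 scale (edgeR adjusted p = 0.0384). With 1 library left out this ran from -2.68 to -1.42 and stayed called in 7 of 12 fits (adjusted p from 0.0133 to 0.151). The call was lost without any 1 of the Hoxa5tdTomato libraries, without the third Math1Hoxa5-IRES-GFP library (-1.42) and without the second tdT library. Robo1 was at -1.43 ± 0.58 (adjusted p = 0.155) and Slit2 at 0.83 ± 0.29 (adjusted p = 0.104). The difference of the within-set differences, which takes each group against the references of its own set, was -0.98 ± 0.61 for Robo3 (adjusted p = 0.727) and 0.73 ± 0.39 for Robo1 (adjusted p = 0.672). By edgeR that test called 0 of 6 members and 0 of 14732 genes (0%), and 0 members had an unadjusted p below 0.05, against 8.02% of all genes. Whether the groups differ in any Slit or Robo gene apart from their set was therefore not shown.

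Vascular cells are also known to make Slit3 and Robo4, and their markers moved with the Hoxa5tdTomato group. The summed level of 14 endothelial markers was 139, 118 and 214 CPM in the Hoxa5tdTomato libraries, against 3.91 to 34.5 CPM in the creErt2 and 1.82 to 23.0 CPM in the tdT libraries. The summed level of 10 mural cell markers was 109 to 219 CPM in the Hoxa5tdTomato libraries, against 8.88 to 19.2 CPM in the creErt2 and 2.42 to 29.97 CPM in the tdT libraries. Of the endothelial markers 2 of 12 tested rose (Eng and Esam) and of the mural markers 3 of 8 (Abcc9, Anpep and Rgs5). None fell, and 1.73% of all genes were called in either direction. In the same pooled edgeR fit 11 of these 12 and 6 of these 8 had an unadjusted p below 0.05, against 14.6% of all genes. With the references apart edgeR called 0 of these 12 and 0 of these 8, against 0.557% of all genes. There 4 of each list had an unadjusted p below 0.05, against 8.91%, and the median log2 differences were 3.34 and 3.35. No endothelial or mural marker was at 0 in all Hoxa5tdTomato libraries, and Anpep was at 0 in all Math1tdTomato libraries. Their part in the Slit3 difference of the Hoxa5tdTomato libraries was not tested. In the libraries labelled Math1Hoxa5-IRES-GFP the endothelial sum was 1.58, 39.96 and 0.802 CPM and the mural sum 18.48, 55.9 and 5.92 CPM, beside Slit3 at 46.3, 6.43 and 41.4 CPM. Among these libraries Slit3 was high in the 2 with the lowest sums and low in the library with the highest. In the tdT libraries the endothelial sum was 1.82, 23.0 and 22.5 CPM, beside Slit3 at 2.07, 12.4 and 10.5 CPM. In the creErt2 libraries it was 15.3, 3.91 and 34.5 CPM, beside Slit3 at 4.97, 11.2 and 9.50 CPM. How Slit3 relates to these sums was not tested. In a sorted bulk sample, more cells of a type and more RNA per cell cannot be told apart.

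**Figure D4:**
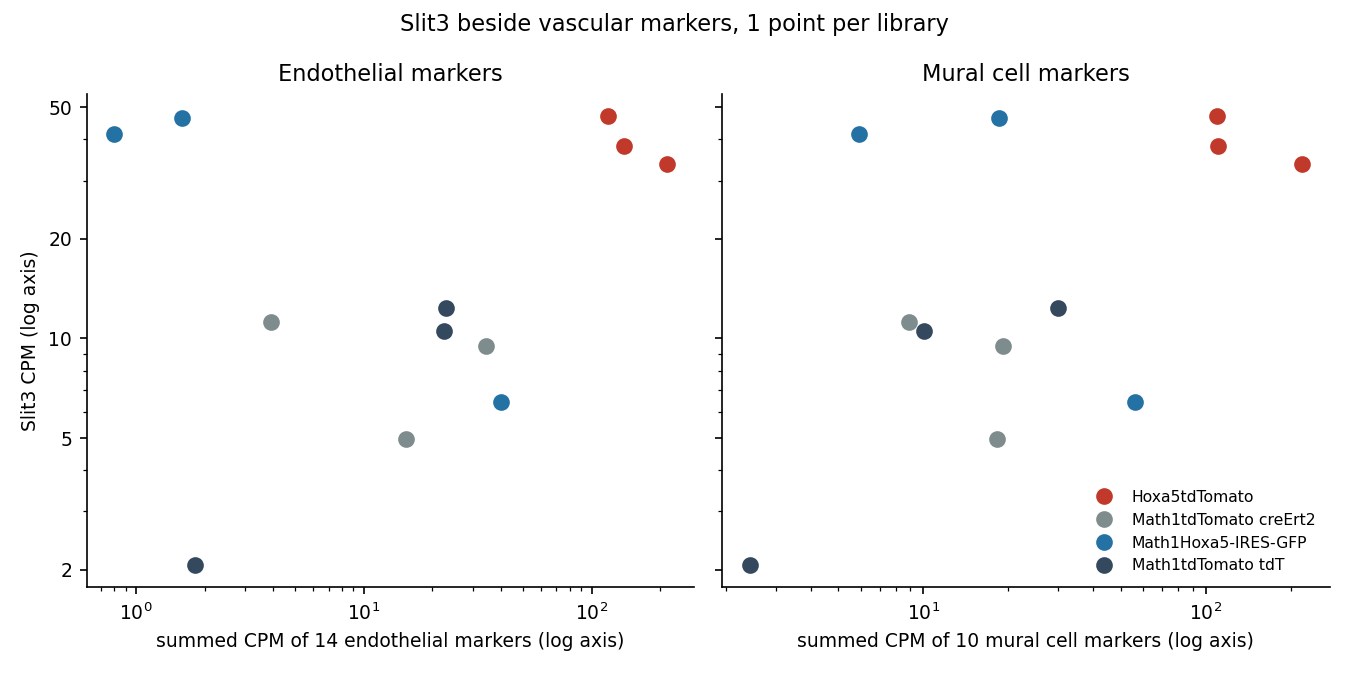
Slit3 CPM against the summed CPM of 14 endothelial (left) and 10 mural cell markers (right), log axes, 1 point per library. The Hoxa5tdTomato libraries have high Slit3 with endothelial sums of 118 to 214 CPM, and 2 libraries labelled Math1Hoxa5-IRES-GFP have equally high Slit3 with sums of 0.802 and 1.58 CPM. The tdT library with the lowest endothelial sum, 1.82 CPM, has the lowest Slit3, 2.07 CPM.

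Markers of the labelled cell type were present in every group, though Neurod1, 1 of the 17 listed, was at 0 in all Math1tdTomato libraries. The summed level of 17 pontine neuron markers was 7223 to 7904 CPM in the Hoxa5tdTomato libraries, 10831 to 16526 CPM in the libraries labelled Math1Hoxa5-IRES-GFP and 11788 to 16816 CPM in the Math1tdTomato libraries. Of the 16 markers tested, 5 fell in the Hoxa5tdTomato libraries (Cntn2, Nfia, Nfib, Nfix and Nhlh1) and none rose, against 1.73% of all genes called. With the references apart 2 were called (Nfib and Nfix), against 0.557% of all genes. This sum was lower in the same libraries as Robo3, and its part in the Robo3 difference was not tested. Floor plate cells are the textbook midline source of Slits. Their markers summed to 75.7 to 107 CPM in the Hoxa5tdTomato libraries, 63.4 to 92.6 CPM in the libraries labelled Math1Hoxa5-IRES-GFP and 88.0 to 189 CPM in the Math1tdTomato libraries, with 0 of 3 tested called in any comparison and the defining marker Foxa2 at 0 in all Hoxa5tdTomato, Math1Hoxa5-IRES-GFP and tdT libraries. Motor neurons, another source of Slits in the hindbrain, had their defining marker Mnx1 at 0 in all 12 libraries and Isl1 at or near 0. The sum of 6 motor neuron markers, most of it the choline transporter gene Slc5a7, was 94.6 to 110.0 CPM in the Hoxa5tdTomato libraries, 169, 232 and 72.5 CPM in the libraries labelled Math1Hoxa5-IRES-GFP and 70.4 to 98.3 CPM in the Math1tdTomato libraries; its part in the Slit values was not tested. Meningeal and fibroblast markers summed to 13.2 to 30.3 CPM in the Hoxa5tdTomato libraries, against 2.14 to 14.9 CPM in the Math1tdTomato libraries, and microglia markers to 7.61 to 46.2 CPM, against 0.321 to 8.78 CPM. Astrocyte and radial glia markers summed to 671 to 1045 CPM in Hoxa5tdTomato, 569 to 937 CPM in Math1Hoxa5-IRES-GFP and 581 to 975 CPM in Math1tdTomato libraries. In the same order oligodendrocyte markers summed to 83.0 to 103, 44.6 to 79.9 and 42.9 to 86.3 CPM. Again in that order, inhibitory neuron markers summed to 121 to 222, 163 to 431 and 160 to 313 CPM. Most of the inhibitory sum was Gad2, at a mean of 156, 223 and 169 CPM. Gad1, Lhx5 and Slc6a5 were at 0 in all libraries labelled Math1Hoxa5-IRES-GFP, and Lhx5 and Slc6a5 also in all creErt2 libraries. None of the meningeal, microglial, astrocyte, oligodendrocyte, inhibitory, serotonergic or motor neuron markers tested by edgeR was called against Math1tdTomato libraries in either group. Over all genes, 1.73% were called for Hoxa5tdTomato and 1.84% for Math1Hoxa5-IRES-GFP libraries. At an unadjusted p below 0.05 were 0 to 2 per list in Hoxa5tdTomato libraries, against 14.6% of all genes. These included 2 of 4 meningeal, 2 of 6 inhibitory and 2 of 8 oligodendrocyte markers. In the libraries labelled Math1Hoxa5-IRES-GFP they were 0 to 5 per list, against 16.7%. These included 5 of 8 astrocyte, 3 of 8 oligodendrocyte and 3 of 6 inhibitory markers, with median log2 differences of -0.63, -0.42 and -2.41. With the references apart these 3 counts were 1, 1 and 3, against 13.7%. Set directly against the libraries labelled Math1Hoxa5-IRES-GFP, across the sets, Hoxa5tdTomato libraries had Aldoc, Gad1, Eng, Ramp2 and Tek called higher. Lhx1 and 6 of 16 pontine neuron markers were called lower, and 3.35% of all genes were called in either direction. None of these markers passed in the difference of the within-set differences.

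Robo4, the endothelial Robo, stood at 7.47, 5.65 and 13.3 CPM in the Hoxa5tdTomato libraries, against 0.621, 0.444 and 5.88 CPM in the creErt2 and 0.107, 3.62 and 5.31 CPM in the tdT libraries. The groups overlapped by a narrow margin, and the log2 difference was 1.72 ± 1.15 (edgeR adjusted p = 0.550). Robo4 stood at 0.0931, 2.79 and 0 CPM in the libraries labelled Math1Hoxa5-IRES-GFP.

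Around the receptors, 18 genes for binding partners and co-receptors were all tested. Between Hoxa5tdTomato and Math1tdTomato libraries 0 rose and 2 fell, against 1.73% of all genes called, with a median log2 difference of 0.17. Dcc, the netrin receptor that forms a complex with Robo3, stood at 131 ± 18.3 CPM in the Hoxa5tdTomato libraries (SD, n = 3), against 438 ± 191 CPM in the Math1tdTomato libraries (SD, n = 6). Its log2 difference was -1.75 ± 0.43 (edgeR adjusted p = 0.0492), and -1.23 ± 0.42 within set 1 (adjusted p = 0.318). Cdh2, the N-cadherin whose adhesion Robo activation weakens in chick retinal cells, was at 267 ± 27.8 CPM, against 449 ± 70.3 CPM, a log2 difference of -0.75 ± 0.15 (adjusted p = 0.0184; 0.0940 within set 1). Nell2, a ligand of Robo3, was at 159 ± 12.3 CPM, against 195 ± 40.6 CPM, and was not called (log2 difference -0.30 ± 0.18, adjusted p = 0.491).

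Of the same 18 partners, 1 rose and 0 fell in the libraries labelled Math1Hoxa5-IRES-GFP, against 1.84% of all genes called. Plxna1, a plexin that binds a cleaved fragment of Slits, stood at 280 ± 24.9 CPM (SD, n = 3), against 148 ± 19.8 CPM in the Math1tdTomato libraries (SD, n = 6), a log2 difference of 0.92 ± 0.16 (edgeR adjusted p = 0.00411; 0.0197 within set 2). The call for Plxna1 thus held with the references apart. Dcc in this group was at 0.24 ± 0.39 and Nell2 at -0.17 ± 0.18 on the log2 scale, and neither was called (adjusted p = 0.798 and 0.685). Against these libraries, Hoxa5tdTomato libraries had Dcc (-1.99 ± 0.47) and Plxna1 (-0.77 ± 0.19) lower across the sets, and neither passed in the difference of the within-set differences. Dcc and Plxna1 were the 2 of 18 called across the sets, against 3.35% of all genes.

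The genes of heparan sulphate synthesis make the sugar chains that stabilise Slit binding to Robo. Of 14 such genes, all tested, 0 rose and 0 fell in the Hoxa5tdTomato libraries, against 1.73% of all genes called. Their median log2 difference was -0.18. At an unadjusted p below 0.05 was 1 of 14, against 14.6% of all genes, and 1 of 14 with the references apart, against 8.91%. In the other comparison 0 rose and 1 fell in the libraries labelled Math1Hoxa5-IRES-GFP, against 1.84% of all genes called. This was Ext1, a subunit of the chain polymerase, at 38.9 ± 12.4 CPM (SD, n = 3), against 99.7 ± 28.8 CPM in the Math1tdTomato libraries (SD, n = 6), a log2 difference of -1.36 ± 0.27 (edgeR adjusted p = 0.0142; 0.0794 within set 2).

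Downstream of the receptors, 26 genes of cytoplasmic Robo signalling were all tested. Of these 0 rose and 0 fell in the Hoxa5tdTomato libraries relative to Math1tdTomato libraries, against 1.73% of all genes called, with a median log2 difference of -0.17. At an unadjusted p below 0.05 were 7 of 26, against 14.6% of all genes. With the references apart these were 2 of 26, against 8.91%. The srGAP proteins bind the cytoplasmic tail of Robo receptors. Srgap3 had the largest difference of the 3, at 522 ± 40.7 CPM in the Hoxa5tdTomato libraries (SD, n = 3), against 704 ± 77.6 CPM in the Math1tdTomato libraries (SD, n = 6), a log2 difference of -0.43 ± 0.13 (edgeR adjusted p = 0.102). Srgap1 was at -0.14 ± 0.17 (adjusted p = 0.790) and Srgap2 at 0.06 ± 0.13 (adjusted p = 0.903).

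Of the same 26 genes, 1 rose and 0 fell in the libraries labelled Math1Hoxa5-IRES-GFP, against 1.84% of all genes called. Cap2, a cyclase-associated actin regulator, had a log2 difference of 2.48 ± 0.44 (edgeR adjusted p = 0.00635, and 0.0794 within set 2). It ran from 41.8 to 328 CPM in these libraries, against 15.7 to 37.3 CPM in the Math1tdTomato libraries. Its level of 145 ± 159 CPM (SD, n = 3) had an SD above the mean, so the libraries differed widely. Across the sets, Nedd4, a ubiquitin ligase that with Ndfip proteins lowers Robo1 on mouse commissural axons, was lower in the Hoxa5tdTomato libraries than in the libraries labelled Math1Hoxa5-IRES-GFP (-0.90 ± 0.23, adjusted p = 0.0449). The same held for Pak1, a kinase activated by Rac and Cdc42 (-0.97 ± 0.17, adjusted p = 0.0223). Nedd4 and Pak1 were the 2 of 26 called there, against 3.35% of all genes. They did not pass in the difference of the within-set differences (edgeR adjusted p = 0.784 and 0.522).

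Of 9 transcription factors with reported control of Slit or Robo genes, 5 were tested. Between Hoxa5tdTomato and Math1tdTomato libraries 0 were called, against 1.73% of all genes. At an unadjusted p below 0.05 were 2 of 5, against 14.6%, and 1 of 5 with the references apart, against 8.91%. In the libraries labelled Math1Hoxa5-IRES-GFP 1 of 5 (Lhx2) was called, against 1.84% of all genes, and the same 1 with the references apart, against 0.862%. Directly between the 2 groups 1 of 5 (Pax6) was called, against 3.35%. Hoxa2, which in the mouse acts upstream of Robo2 in migrating pontine neurons, stood at 156 ± 27.3 CPM in the Hoxa5tdTomato libraries (SD, n = 3), against 182 ± 41.4 CPM in the Math1tdTomato libraries (SD, n = 6), a log2 difference of -0.23 ± 0.21 (edgeR adjusted p = 0.715). Lhx2, which with Lhx9 controls Robo3 in mouse spinal commissural neurons, stood at 0.140 to 2.43 CPM in the libraries labelled Math1Hoxa5-IRES-GFP, against 9.59 to 75.6 CPM in the Math1tdTomato libraries, a log2 difference of -5.16 ± 0.94 (adjusted p = 0.00732; 0.00524 within set 2). In the Hoxa5tdTomato libraries Lhx2 stood at 2.49 to 7.13 CPM (log2 difference -2.80 ± 0.81, adjusted p = 0.0931). Pax6, a paired homeodomain factor, was lower in the Hoxa5tdTomato libraries than in the libraries labelled Math1Hoxa5-IRES-GFP (-1.06 ± 0.23, adjusted p = 0.0307; 0.585 in the difference of the within-set differences).

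The genes whose log2 CPM was most like that of each member over the 12 libraries are given as a description, since these points share set, depth and group. Robo3 was closest to Dhx9 (Pearson r = 0.986), Mtss1 (0.985) and Hivep1 (0.978). Robo1 was closest to Zfp37 (0.950), Nvl and Rab11b, and Robo2 to Kcna6 (0.930), Shisa6 and Tenm3. Slit3 was closest to Dock9 (0.932), Flrt2 and Cend1, Slit2 to Epas1 (0.951), Nelfa and Nkapl, and Slit1 to Bdnf (0.935), Lama3 and Grid1. No member was among the 3 closest genes of another.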

How the data were processed

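The authors deposited raw read counts per gene, with gene lengths, as 1 table for the 12 libraries. Per the labels' protocols, RNA of 1000 cell equivalents was SPIA-amplified, a method that copies cDNA linearly from few cells, and 1 ng of cDNA was made into libraries. The submitters' processing notes name bcl2fastq 1.8.4 and mm10. The aligner, counter, annotation and use of strand: not given in the sources used here, so reads of overlapping or antisense genes could not be separated. Genes passing filterByExpr (minimum count 10; 14732 of 23079) were scaled by TMM and fitted in edgeR 4.0.16 (R 4.3.3; glmQLFit, glmQLFTest) with 1 mean per labelled group, adjusting p over all genes tested by Benjamini-Hochberg, at a threshold of 0.05. TPM used the deposited lengths. Exact permutation tests used log2(CPM + 0.5). Alternatives were DESeq2 1.42.0, other scalings, no filter, thinned counts, the 4 column-name groups, a replicate block and each library left out; fits of 1 set alone, or without the third Math1Hoxa5-IRES-GFP library, were chosen after seeing the data. The edgeR fit was tested on simulated data with less spread between libraries than these data (edgeR common dispersion 0.312) and no difference between the sets. That test therefore cannot say how well the fit performs here. Reference columns were used by group, since their numbers could not be matched to label numbers. Because cDNA was amplified and reads carried no molecular tags, counts overstate the number of independent molecules. The members, the gene lists and the rule for named genes (all members, Hoxa5, called genes of the lists, and Robo4, Nell2, Dcc and Srgap1 to Srgap3; the other genes were named after their values were seen) were chosen with earlier results of these data known.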

Additional observations from a re-analysis of the deposited data

How the results depend on the processing

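Against Math1tdTomato libraries, Slit3 and Robo3 kept their direction in Hoxa5tdTomato libraries under every alternative run, and the count of called genes, 2, changed to 0 with the references of the 2 sets apart, to 0 with these and the replicate block, to 3 with the references apart and the third Math1Hoxa5-IRES-GFP library out, and to 5 in the 6 libraries of set 1; it was 0 to 2 with 1 library left out. Robo1 turned from -0.26 to 1.20, 1.19 with the block, 1.22 in the 6 libraries, 1.19 without the third Math1Hoxa5-IRES-GFP library, and -0.44 to 0.11 with 1 library left out. For libraries labelled Math1Hoxa5-IRES-GFP the count of 0 became 1 without the filter, 1 with DESeq2, 1 with the references apart and the third library out, and 0 to 1 with 1 library left out. Robo3 there turned to -0.36, -0.56 with the block, -0.35 in the 6 libraries of set 2, -1.25 without the third library, and ran from -0.73 to 0.53 with 1 library left out; Slit1 ran from -1.48 to 1.38. Between Hoxa5tdTomato and Math1Hoxa5-IRES-GFP libraries the count of 1 became 0 with total counts as the only scaling, 0 with only these groups fitted, 0 with the references apart, 0 with the block and 2 with DESeq2, and 0 to 2 with 1 library left out. Robo1 there turned to 0.73, and 0.79 with the block; Robo2 to 0.18 with total counts, 0.31 with the references apart and 0.34 with the block, and ran from -0.30 to 0.040 with 1 library left out, as Slit3 did from -0.13 to 0.73; the log2 ratio of mean Robo2 TPM turned from 0.013 to -0.093 when computed on CPM. Scaling by total counts moved the median log2 difference of all genes to 0.16, -0.13 and 0.30 in the 3 comparisons. Over all genes, 255 were called for Hoxa5tdTomato and 271 for Math1Hoxa5-IRES-GFP libraries against Math1tdTomato libraries, and 493 between them. In the same order these were 82, 127 and 0 with the references apart, 72, 77 and 0 with the block, 735, 166 and 142 with only the groups compared, 601, 831 and 1484 by DESeq2, and 980 and 10 in single sets; with 1 library left out they ran from 35 to 728, 190 to 575 and 0 to 1157. Total-count scaling changed the split of higher and lower calls to 170 and 70, 105 and 94, and 110 and 32, against 124 and 131, 191 and 80, and 135 and 358 by TMM. The cause of these changes was not tested. Same-numbered libraries of a set did not deviate together (r from -0.0281 to 0.0493), so the numbers were not taken as pairs, and the block changed no call of a member relative to the same fit without it. Slit1 rested on 2 to 229 counts per library.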
